A study of Mus musculus with 5 samples.

Results

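Teneurins and FAT giant cadherins are very large cell-surface proteins, and the mouse genome has 4 genes of each family. All 8 were looked up by symbol in the deposited gene table from thyroid glands with mutant Braf, and 7 of the 16413 genes listed were members: Tenm2, Tenm3, Tenm4, Fat1, Fat2, Fat3 and Fat4. Expression of Tenm1 was not analysed here. Tenm3 and Fat2 were chosen by their lower values on the high fat diet in these same libraries, and the other genes were added as their paralogs. The diet values of all 7 members are therefore given as descriptions, without a test.

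The high fat diet group held 3 libraries (replicates 2, 9 and 10) and the chow group held 2 (replicates 2 and 8), all from total RNA of the whole thyroid. Every animal, on either diet, carried the conditional LSL-BrafV600E allele together with TgCreERT2, a tamoxifen-activated recombinase whose name refers to the thyroglobulin promoter, so that the oncogene was meant for follicular cells and not for the other cells of the gland. Tamoxifen was given for 1 week at 8 weeks of age. The diets ran for 12 weeks, between 10 and 22 weeks of age. Whether every numbered library came from its own animal is not stated in the labels, and the p-values below measure only the spread between libraries, which may be technical. No unmutated thyroid was analysed here, so the data compare diets within mutant glands.

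Teneurins cross the membrane once and reach across the cell contact to bind latrophilins, adhesion receptors of the G protein-coupled class, with FLRT proteins as further partners. They are best known for matching synaptic partners in the developing brain. FAT proteins are atypical cadherins with long chains of cadherin repeats. Fat4 binds the cadherin Dchs1 on the neighbouring cell and acts in planar cell polarity, and its Drosophila counterpart Fat restrains growth through the Hippo kinases and the co-activator Yorkie, the fly form of YAP. Fat1 regulates actin at cell edges through Ena/VASP proteins. Fat2 is known from cerebellar granule cells in mammals, and its Drosophila counterpart steers the collective migration of an epithelium.

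Windows at the RefSeq starts of Tenm3, Tenm4 and Fat2 are shown because these genes had lower levels on the high fat diet than on chow. That of Fat1 is shown as a member whose values overlapped between the diets. The windows of Fat3, Fat4 and Tenm2, whose values overlapped too, and the second window of Tenm4 are not shown. All windows come from RefSeq on build GRCm38.p6, which is mm10. They run from 250 bases before to 50 bases after a start that RefSeq annotates, 5′ to 3′ on the gene's strand. Capitals mark GGAATG or its reverse complement CATTCC, the letters of the TEAD motif, through which YAP acts. Tenm3 is on the minus strand at chr8:48674641-48674940. Tenm4 is on the plus strand at chr7:96170994-96171293, the first of its 2 promoters in the table. Fat2 is on the minus strand at chr11:55312208-55312507, and Fat1 on the plus strand at chr8:44949958-44950257. Only the Tenm4 window lies at the outermost gene start in GENCODE, within 2 bases. The starts used for Tenm3, Fat2 and Fat1 lie 169 kb, 24.3 kb and 14.8 kb downstream of it, each at the first base of a GENCODE transcript that begins inside the gene. For these 3 genes the region upstream of the outermost start was not searched.
Tenm3: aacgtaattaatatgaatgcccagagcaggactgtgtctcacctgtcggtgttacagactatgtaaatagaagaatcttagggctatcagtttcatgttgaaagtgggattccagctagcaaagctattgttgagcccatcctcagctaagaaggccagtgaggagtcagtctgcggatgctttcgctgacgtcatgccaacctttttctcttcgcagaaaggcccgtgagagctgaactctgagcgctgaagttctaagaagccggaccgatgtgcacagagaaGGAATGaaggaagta
Tenm4: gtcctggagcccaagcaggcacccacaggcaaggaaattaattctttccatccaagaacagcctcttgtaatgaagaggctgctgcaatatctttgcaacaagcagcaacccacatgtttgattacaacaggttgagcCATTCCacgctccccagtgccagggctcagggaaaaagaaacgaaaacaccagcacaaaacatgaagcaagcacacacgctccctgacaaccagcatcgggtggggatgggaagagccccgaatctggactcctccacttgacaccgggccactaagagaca
Fat2: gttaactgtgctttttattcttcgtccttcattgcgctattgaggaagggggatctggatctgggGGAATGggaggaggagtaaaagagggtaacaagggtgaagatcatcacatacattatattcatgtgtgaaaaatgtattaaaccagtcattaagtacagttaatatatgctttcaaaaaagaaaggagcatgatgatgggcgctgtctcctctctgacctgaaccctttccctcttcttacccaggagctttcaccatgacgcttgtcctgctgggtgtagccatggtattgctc
Fat1: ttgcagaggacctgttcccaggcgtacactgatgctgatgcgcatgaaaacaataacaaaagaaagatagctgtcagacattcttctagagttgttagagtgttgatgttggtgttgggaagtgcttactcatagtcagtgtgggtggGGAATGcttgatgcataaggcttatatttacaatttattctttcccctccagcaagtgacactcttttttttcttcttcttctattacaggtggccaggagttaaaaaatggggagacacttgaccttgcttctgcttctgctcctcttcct

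The TEAD letters were found in 4 of the 8 genes, once in each of the 4 windows shown. Every window shown thus holds a match, and no window left out does. Of 32851 promoters of the same length, 4817 (14.7%) held the letters on either strand. Counted from the 5′ end, the match starts at base 286 in Tenm3, 139 in Tenm4, 66 in Fat2 and 149 in Fat1. The second Tenm4 window and the windows of Tenm1, Tenm2, Fat3 and Fat4 had no match, and those of Tenm1 and Tenm2 also lie far inside their genes, 154 kb and 292 kb from the outermost start. The half-site of the cyclic AMP response element (TGACG or CGTCA), added after the sequences were seen, was found in 2 of the 8 genes against 20.8% of all promoters. Fat2 had 1 match, while Tenm3 had a match on each strand, at bases 188 to 192 and 191 to 195, which overlap in the letters CG. The E-box (CANNTG, the same on both strands) was found in 6 of 8 genes against 72.3% of promoters, and the TATA box (TATAAA or TTTATA) in Tenm1 alone against 13.6%. The GC box (GGGCGG or CCGCCC), the CCAAT box (CCAAT or ATTGG) and the AP-1 motif (TGANTCA) were found in 0 of the 8 genes, against 35.7%, 37.4% and 7.81% of promoters. The member counts are of 8 genes with 9 windows, while the shares are of single windows. Most of the member windows start inside their gene, so a missing match does not describe the outermost start. A match describes letters in the window and is not a measured binding site.

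All 7 listed members are long genes. Tenm3 (gene ID 23965) spans chr8:48227682-48843951 on the minus strand of mm10, 616 kb with 29 exons in the transcript matched to its RefSeq entry. Tenm4 (23966) spans chr7:96171246-96911093 on the plus strand, 740 kb with 33 exons, and Tenm2 (23964) spans chr11:36006656-37235964 on the minus strand, 1229 kb with 29 exons. Fat2 (245827) is much more compact, 86.0 kb at chr11:55250609-55336564 on the minus strand with 23 exons. Fat1 (14107) lies at chr8:44935447-45052257 on the plus strand with 26 exons and ends 3.18 Mb before Tenm3 on the same chromosome. Fat3 (270120) covers 591 kb at chr9:15910189-16501285 on the minus strand with 25 exons, and Fat4 (329628) covers chr3:38886940-39011985 on the plus strand with 17 exons. None of the 28 pairs among the 8 genes shared a 50-base word between their transcripts. Inside Tenm4 lies the antisense gene Gm15413, and whether counting used strand is not given in the sources used here. Gm15413 had 27 to 42 reads in high fat diet libraries and 24 and 41 in chow libraries, at most 1.04% of the Tenm4 reads of the same library.

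Per length, in fragments scaled to transcript length and library size (FPKM, as the authors deposited them), Fat1 stood far above all other members. It had 65.0, 73.7 and 67.7 FPKM in high fat diet replicates 2, 9 and 10, against 66.2 and 69.8 FPKM in chow replicates 2 and 8. Its mean FPKM over the 5 libraries was higher than that of 95.8% of listed genes. Tenm3, Fat2 and Tenm4 followed at means of 9.09, 7.80 and 7.03 FPKM over the 5 libraries, with ranges that overlap between neighbours in this order. Fat4, at 3.42 FPKM, did not reach into the range of Tenm4. Fat3, at 0.282 FPKM, and Tenm2, at 0.0434 FPKM, lay near the bottom of the table, above 8.60% and 0.755% of listed genes.

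**Figure D1:**
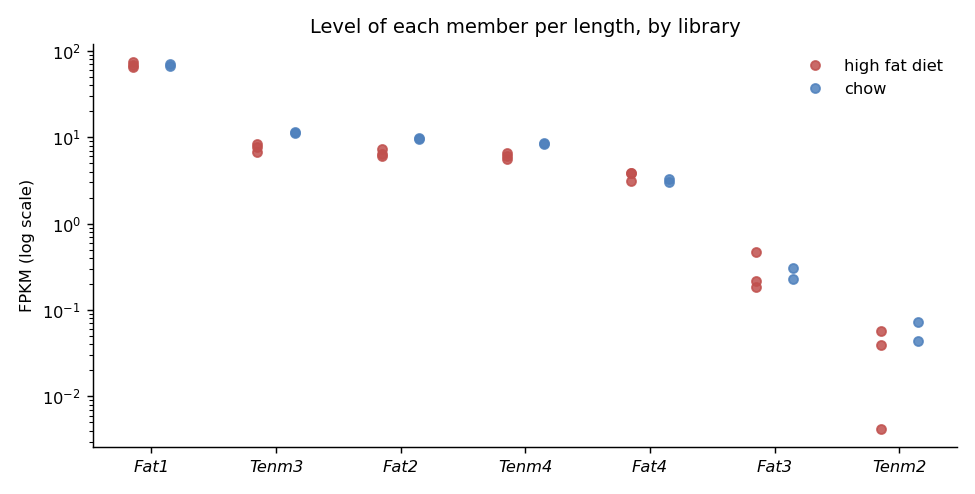
FPKM of each member in the 3 high fat diet and 2 chow libraries, each point 1 library, on a log axis, with genes ordered by their mean. Fat1 lies alone at the top, Tenm3, Fat2 and Tenm4 lie close together with chow points above high fat diet points, and Fat3 and Tenm2 lie below 1 FPKM.

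Tenm3 was lower in every high fat diet library than in either chow library. Its level, in reads scaled to the library total with TMM factors (CPM), was 77.2, 90.7 and 81.3 CPM in high fat diet replicates 2, 9 and 10, against 125 and 137 CPM in chow replicates 2 and 8. The groups did not overlap, and high fat diet replicate 9 was the highest of its group. The means were 83.1 ± 6.96 CPM on the high fat diet (SD, n = 3) and 131 ± 8.52 CPM on chow (SD, n = 2), 36.7% lower, a log2 ratio of high fat diet to chow of -0.66 (SE 0.11). The read counts behind these values were 3994 to 4556 on the high fat diet and 5406 and 5638 on chow, and the exact 95% Poisson interval of the lowest, 3871 to 4120, covers counting error only. In bulk tissue, fewer cells of a type and less RNA per cell cannot be told apart.

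Tenm4 followed Tenm3 closely. It had 77.9, 89.7 and 77.7 CPM in high fat diet replicates 2, 9 and 10, against 117 and 127 CPM in chow replicates 2 and 8. Here too the groups did not overlap. Mean levels were 81.8 ± 6.87 CPM on the high fat diet (SD, n = 3) and 122 ± 7.08 CPM on chow (SD, n = 2), 32.8% lower, a log2 ratio of -0.57 (SE 0.11). Tenm3 thus did not stand against this paralog. For every 100 Tenm4 reads there were 99.0, 101 and 105 Tenm3 reads in high fat diet libraries, against 107 and 108 in chow libraries, without correction for length.

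The third teneurin, Tenm2, was close to the detection limit. It had 21, 29 and 2 reads in high fat diet replicates 2, 9 and 10, against 19 and 32 reads in chow replicates 2 and 8. The groups overlap, and the 2 reads of high fat diet replicate 10 have an exact 95% Poisson interval of 0.242 to 7.22 reads. That interval does not meet those of the other high fat diet libraries, 13.0 to 32.1 and 19.4 to 41.6 reads, so the libraries of this diet differed beyond counting error. Its log2 ratio of -0.83 had an SE of 0.81, and it moved to -0.31 without high fat diet replicate 10, -0.36 without chow replicate 8 and -1.43 without high fat diet replicate 9. Within the summed teneurin FPKM, Tenm3 held 55.5 ± 0.842% on the high fat diet (SD, n = 3) and 57.0 ± 0.00998% on chow (SD, n = 2), and Tenm4 held nearly all of the remainder. The sum itself was 12.4, 14.95 and 13.8 FPKM in high fat diet libraries, against 19.5 and 20.2 FPKM in chow libraries, so the 2 abundant teneurins lay lower together at nearly the same proportions.

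**Figure D2:**
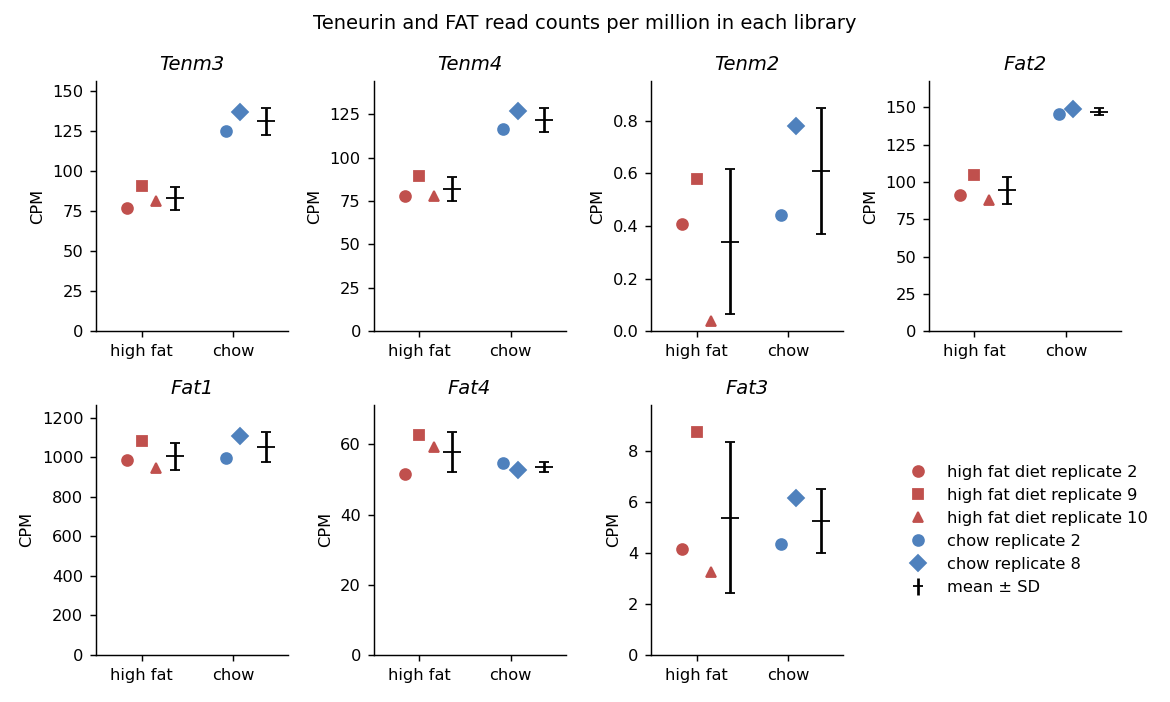
CPM of each member in each library, with the 3 high fat diet libraries left of the 2 chow libraries, a symbol for each replicate and the mean with its SD in black. Tenm3, Tenm4 and Fat2 have no overlap between the diets, while Fat1, Fat4, Fat3 and Tenm2 overlap.

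Among the FAT genes, Fat2 was lower on the high fat diet by about as much as the teneurins. It had 91.1, 105 and 87.6 CPM in high fat diet replicates 2, 9 and 10, against 146 and 149 CPM in chow replicates 2 and 8. The groups did not overlap, and the lowest chow library was well above the highest high fat diet library. Means were 94.5 ± 9.08 CPM on the high fat diet (SD, n = 3) and 147 ± 2.46 CPM on chow (SD, n = 2), 35.8% lower, a log2 ratio of -0.64 (SE 0.11).

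Fat1, the most abundant member, had values that overlapped between the diets. It stood at 987, 1081 and 948 CPM in high fat diet replicates 2, 9 and 10, against 998 and 1108 CPM in chow replicates 2 and 8. The log2 ratio was -0.07 (SE 0.13). Fat4, the binding partner of Dchs1, had 51.5, 62.8 and 59.3 CPM on the high fat diet, against 54.6 and 52.7 CPM on chow, and its log2 ratio was 0.11 (SE 0.12). The chow values of Fat4 lay inside the range of the high fat diet values. Fat3 had 4.17, 8.78 and 3.24 CPM on the high fat diet, against 4.38 and 6.16 CPM on chow, a log2 ratio of 0.04 (SE 0.44). Its sign depended on single libraries, at -0.51 without high fat diet replicate 9, -0.20 without chow replicate 2 and 0.31 without chow replicate 8. Fat1 held 86.8 ± 0.510% of the summed FAT level on the high fat diet (SD, n = 3) and 83.9 ± 0.848% on chow (SD, n = 2), and that sum was 74.3 to 85.4 FPKM on the high fat diet, against 79.5 and 82.6 FPKM on chow. Fat2 held 8.27 ± 0.196% of the sum on the high fat diet (SD, n = 3) and 11.9 ± 0.560% on chow (SD, n = 2).

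In all, 3 of the 7 members lay lower on the high fat diet without overlap, 0 lay higher without overlap and 4 overlapped. Of the 15765 genes tested, 10.3% lay lower and 10.6% higher without overlap. Since the diet contrast chose Tenm3 and Fat2, nothing is read from this count. The members' log2 fold changes had a median of -0.57, with 5 of 7 below 0, while the median over all genes tested was 0.01. The authors' deposited table, whose signed fold runs as chow over high fat diet, lists 1.51 for Tenm3, 1.49 for Fat2, 1.43 for Tenm4 and 1.07 for Fat1.

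**Figure D3:**
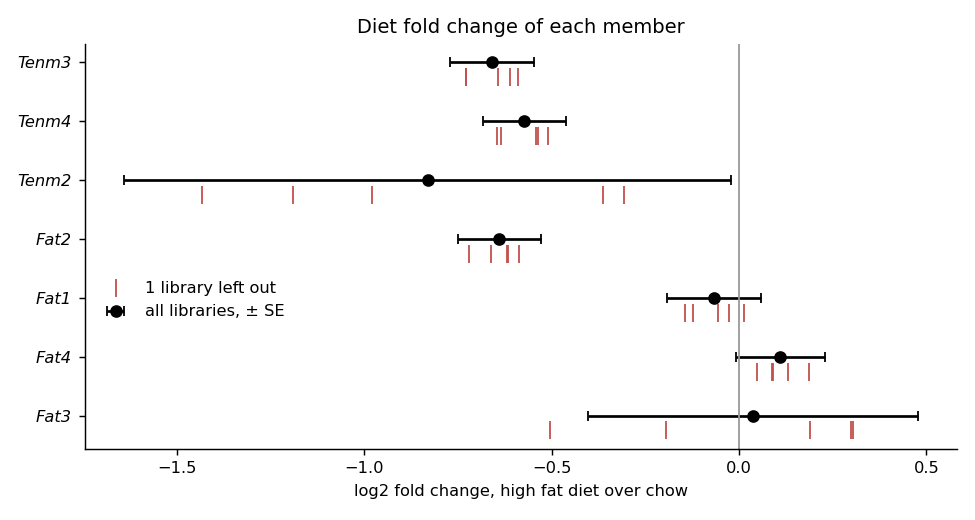
Log2 fold change of each member, high fat diet over chow, with the standard error over all 5 libraries in black and the values with 1 library left out as red ticks. Tenm3, Tenm4 and Fat2 lie between -0.66 and -0.57 with every tick at or below -0.51, and the ticks of Fat1 and Fat3 fall on both sides of 0.

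Leaving out 1 library at a time moved the 3 lower members little. Tenm3 ran from -0.73 to -0.59, Fat2 from -0.72 to -0.59 and Tenm4 from -0.64 to -0.51 on the log2 scale. Reads of Fat1 in the same library gave a comparison that needs no scaling between libraries, and it was chosen after the values were seen. Per 100 Fat1 reads there were 7.82, 8.39 and 8.58 Tenm3 reads in high fat diet replicates 2, 9 and 10, against 12.5 and 12.4 in chow replicates 2 and 8. Fat2 had 9.23, 9.69 and 9.25 in the high fat diet libraries, against 14.6 and 13.4 in the chow libraries. Tenm4 had 7.90, 8.30 and 8.20, against 11.7 and 11.4. The groups of these 3 genes did not overlap on this scale, as on the CPM scale that chose Tenm3 and Fat2. Fat4 had 5.22 to 6.26 reads per 100 Fat1 reads on the high fat diet and 5.47 and 4.75 on chow, with overlap. These ratios are not corrected for length and compare libraries, not genes.

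**Figure D4:**
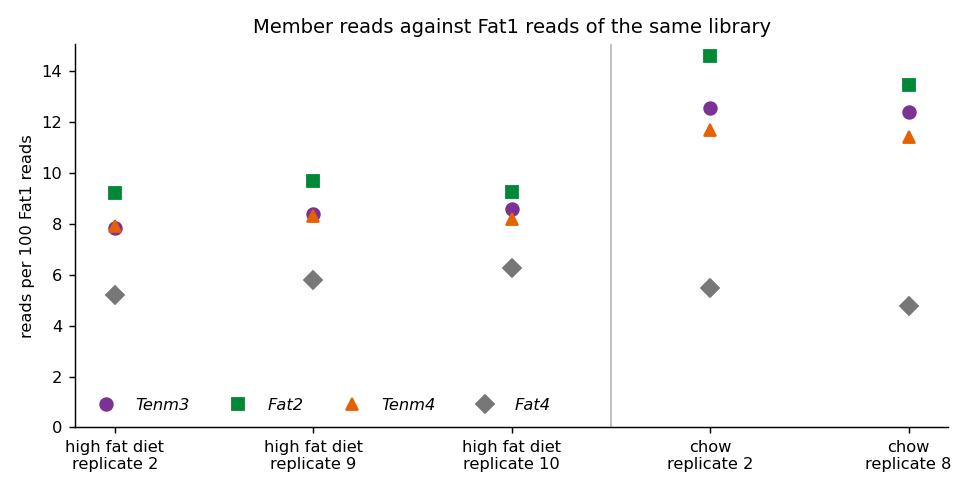
Reads of Tenm3, Fat2, Tenm4 and Fat4 per 100 Fat1 reads of the same library, for the 3 high fat diet libraries at the left and the 2 chow libraries at the right. Tenm3, Fat2 and Tenm4 lie between 7.82 and 9.69 on the high fat diet and between 11.4 and 14.6 on chow, while Fat4 overlaps between the diets.

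The genes whose pattern over the 5 libraries was most like that of Tenm3 and of Fat2 were ranked by the root mean square difference of log2 CPM, each centred on its own mean, among 14084 genes with a mean of at least 1 CPM. For Tenm3 the nearest was Tenm4, with a difference of 0.0494, and the next was Fat2 with 0.0536. Pmaip1, which encodes the pro-apoptotic protein Noxa, followed with 0.0591, then Zcchc10 with 0.0606 and Slc43a2, an amino acid transporter, with 0.0659. For Fat2 the nearest was Rnu12, a small RNA of the minor spliceosome, with 0.0379, followed by Tenm4 with 0.0468, Tenm3 with 0.0536, D430019H16Rik with 0.0600 and Tbc1d8 with 0.0608. Fat1 stood at rank 2356 for Tenm3 and 2476 for Fat2, and Fat4 at 7913 and 8030. Likeness includes the diet difference itself and rests on 5 libraries, and Tenm3 and Fat2 were picked for similar diet values.

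Long transcripts as a class lay slightly lower on the high fat diet. The 298 tested genes with a transcript of at least 10 kb, the length implied by counts and FPKM, had a median log2 fold change of -0.04, and 61.4% of them were below 0. In the 1577 genes of shortest transcripts the median was 0.06. With a smooth trend on transcript length removed in each library, Tenm3 stood at -0.62, Fat2 at -0.59, Tenm4 at -0.52 and Fat1 at -0.02. By gene span, the median was 0.07 in the 1531 genes of shortest span and -0.03 in the 1529 genes that span at least 130 kb. It was -0.02 in the 1528 genes between 72.3 and 130 kb, where Fat2 falls. The 179 tested genes that span at least 500 kb, as Tenm3 and Tenm4 do, had a median of 0.02.

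Over the whole table the quasi-likelihood test of edgeR, adjusted after Benjamini and Hochberg, called 0 genes in either direction at a threshold of 0.05 (0% each way), and the lowest adjusted p was 0.0731. At an unadjusted p under 0.05 there were 465 higher (2.95%) and 390 lower (2.47%), and DESeq2 called 47 higher (0.298%) and 46 lower (0.292%) after adjustment while limma-voom called 0 and 0. Unadjusted, DESeq2 had 3.39% higher and 2.73% lower, and limma-voom had 2.54% in each direction. The partner genes below were measured with the same edgeR fit, and 0 of the 80 tested genes on the 5 lists passed in either direction. Of these 80 genes, 43 had a log2 ratio above 0 and 37 below it, and the median was 0.03. Without overlap between the diets, 8 of the 80 lay lower and 11 higher, while over all genes tested the shares were 10.3% and 10.6%.

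The list drawn up around the teneurins was split between the directions. Of 13 tested genes on that list, 7 were above 0 and 6 below (median log2 ratio 0.06). The list is wider than the known partners of the teneurins. It also held Unc5b, Unc5c, Adgrl4 and Tcap, a symbol that in mouse names a sarcomere gene. Tcap had a log2 ratio of 0.30 with overlapping groups. Flrt1, which belongs to the FLRT adhesion proteins, was the exception in size, at 5.22, 4.62 and 5.64 CPM in the high fat diet libraries, against 7.46 and 9.69 CPM in the chow libraries. Its log2 ratio of -0.73 (SE 0.19) did not pass (edgeR adjusted p = 0.596). The latrophilin Adgrl2 had 118, 122 and 97.7 CPM on the high fat diet, against 128 and 136 CPM on chow, and its log2 ratio of -0.23 did not pass either (edgeR adjusted p = 0.949). The groups of Flrt1 and of Adgrl2 did not overlap. The other latrophilins had positive values with overlapping groups, at 0.33 for Adgrl3 and 0.19 for Adgrl1 on the log2 scale. Adgrl4, which shares the gene name but is not counted as a latrophilin here, had 0.18, also with overlap. Flrt2 stood at 0.16 and Flrt3 at -0.06.

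Partners of FAT proteins and planar polarity genes numbered 18 tested, 11 above 0 and 7 below (median log2 ratio 0.04). Dchs1, the cadherin that Fat4 binds, had 41.1, 40.9 and 40.4 CPM on the high fat diet, against 37.9 and 30.1 CPM on chow. Its groups did not overlap, but the log2 ratio of 0.26 (SE 0.13) did not pass (edgeR adjusted p = 0.929). Vasp, an actin regulator of the Ena/VASP family, had a log2 ratio of 0.63 and was highest in high fat diet replicate 10 at 80.1 CPM. The related Enah had -0.14, and the polarity gene Prickle2 had 0.31. None of them passed, with edgeR adjusted p of 0.884 for Vasp, 0.972 for Enah and 0.936 for Prickle2.

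The Hippo pathway, which the fly counterpart of Fat4 feeds into, was evenly split. Of 19 tested core genes 9 were above 0 and 10 below (median log2 ratio -0.00431). Wwtr1, which encodes the co-activator TAZ, had 158, 170 and 144 CPM on the high fat diet, against 131 and 140 CPM on chow, and its log2 ratio of 0.21 did not pass (edgeR adjusted p = 0.949). The TEAD factors Tead1 and Tead2 had 0.39 and 0.32, and Vgll4, which competes for TEAD, had 0.34, all with overlapping groups. Tead3 had -0.00431, also with overlap. Tead4 had 0.35 without overlap, at 2.98, 3.52 and 2.83 CPM on the high fat diet, against 2.80 and 2.07 CPM on chow. Of the 19 core genes, 1 lay lower and 3 higher without overlap, against 10.3% and 10.6% of all genes tested. Among 18 tested targets of YAP and TAZ, 11 were above 0 and 7 below (median log2 ratio 0.06). The list of 20 also named Ccn1 and Ccn2, which were not found under these symbols and are not counted. No older symbols of Ccn1 and Ccn2 were looked up, so the count and median may leave out listed targets. Ajuba, a LIM protein that restrains LATS kinases, had 22.3, 21.5 and 22.7 CPM on the high fat diet, against 16.9 and 16.5 CPM on chow, and its log2 ratio of 0.41 had an edgeR adjusted p of 0.674 with no overlap between the groups. Foxf2 had 0.82 and Crim1 0.20 without overlap, and Ankrd1 had 1.10 with overlap. None of them passed, with edgeR adjusted p of 0.756 for Foxf2, 0.952 for Crim1 and 0.856 for Ankrd1. Of the 18 targets, 1 lay lower and 4 higher without overlap, against 10.3% and 10.6% of all genes tested.

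Of the 14 other cadherins tested, 5 were above 0 and 9 below (median log2 ratio -0.11), and 0 passed. Without overlap 1 lay lower and 1 higher, against 10.3% and 10.6% of all genes tested. Cdh16, the kidney and thyroid cadherin, had 367, 379 and 318 CPM on the high fat diet, against 419 and 417 CPM on chow, and its log2 ratio of -0.24 did not pass (edgeR adjusted p = 0.941). Cdh4 had -0.34 and the desmosomal Dsc3 had 0.43, both with overlapping groups. Cdh13 had 0.61 with groups that did not overlap (edgeR adjusted p = 0.676).

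**Figure D5:**
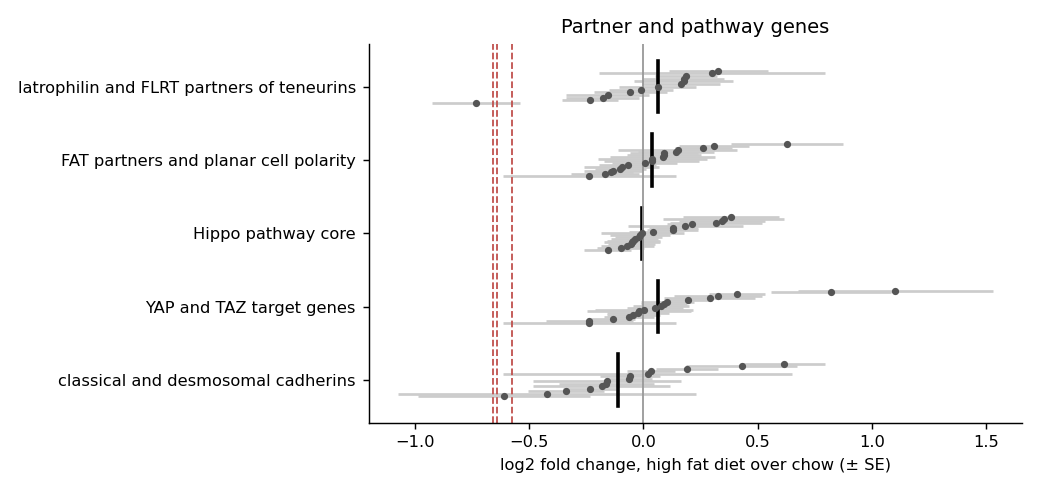
Log2 fold change of the tested genes on each of the 5 lists, high fat diet over chow, with standard errors as grey bars and the list median as a black line. Red dashed lines mark Tenm3, Fat2 and Tenm4 between -0.66 and -0.57, and the list medians lie between -0.11 and 0.06.

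The libraries held 43494747 to 52663677 counts each, and thyroglobulin (Tg), the defining transcript of follicular cells, stood at 12698 to 19816 FPKM on the high fat diet and 21678 and 25725 FPKM on chow. Its groups did not overlap, and Tg made up nearly all of the summed follicular marker level of 104254 to 175718 CPM on the high fat diet and 190351 and 238119 CPM on chow. Of the 9 follicular markers 3 were above 0 and 6 below, and these went both ways. Without overlap 3 lay lower and 3 higher, against 10.3% and 10.6% of all genes tested. Pax8 and Tshr, the receptor for thyrotropin, lay lower without overlap, with log2 ratios of -0.44 and -0.50. The iodide transporter gene Slc5a5 lay higher without overlap, at 52.9, 44.6 and 66.3 CPM on the high fat diet, against 21.5 and 21.2 CPM on chow, a log2 ratio of 1.36 (edgeR adjusted p = 0.0731). Foxe1 and Nkx2-1, thyroid transcription factors, also lay higher without overlap, with 0.78 and 0.36. Adipocyte markers also lay lower, with 6 of 7 below 0 (median log2 ratio -1.05). Their summed levels were 39.6 to 58.4 CPM on the high fat diet and 82.7 and 105 CPM on chow. Of these sums, Cfd alone held 10.1 to 22.0 CPM on the high fat diet and 39.6 and 48.6 CPM on chow. Without overlap 5 of the 7 lay lower and 0 higher, against 10.3% and 10.6% of all genes tested. All 6 Schwann cell markers listed were below 0, with summed levels of 195 to 259 CPM on the high fat diet and 247 and 274 CPM on chow, which overlap. Pmp22, with a log2 ratio of -0.03, made up most of that sum. S100b had 9.04, 13.0 and 10.1 CPM on the high fat diet, against 17.04 and 18.3 CPM on chow, a log2 ratio of -0.72 without overlap (edgeR adjusted p = 0.534). Mbp, a myelin protein gene, had 53.0, 48.2 and 52.3 CPM on the high fat diet, against 62.6 and 69.2 CPM on chow, a log2 ratio of -0.36 without overlap (edgeR adjusted p = 0.673). The part of follicular, adipocyte and Schwann cell markers in the levels of Tenm3, Tenm4 and Fat2 was not tested. Skeletal muscle markers varied within both groups, from 2660 to 4955 CPM on the high fat diet and 6188 and 2281 CPM on chow. Of all genes tested, 10.6% lay higher without overlap, against 4 of the 7 airway markers, all of which were above 0 (median log2 ratio 0.80). Their summed level was 803, 1202 and 6156 CPM on the high fat diet, against 614 and 802 CPM on chow, and the 6156 CPM of replicate 10 included 4638 CPM of the mucin gene Muc5b. Without that library Tenm3 stood at -0.64, Fat2 at -0.59 and Tenm4 at -0.54.

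Fat2 is also known from squamous and basal epithelium, so markers of that tissue were set beside it. Of 9 listed markers 6 were below 0, and their summed level overlapped between the diets, at 135 to 149 CPM on the high fat diet and 133 and 165 CPM on chow. The defining keratin Krt5 stood at 0.135 to 0.281 FPKM on the high fat diet and 0.284 and 0.214 FPKM on chow, and Krt14 at 0.414 to 0.487 FPKM on the high fat diet and 0.686 and 0.843 FPKM on chow. On the same scale Fat2 stood at 6.08 to 7.25 FPKM on the high fat diet and 9.78 and 9.51 FPKM on chow, far above both keratins in every library. The basal transcription factor gene Trp63 was at a level like that of Fat2, with 8.21, 6.65 and 8.74 FPKM on the high fat diet, against 8.21 and 10.1 FPKM on chow, and its groups overlap. Perp, a desmosomal component, averaged 25.2 FPKM on the high fat diet and 32.5 FPKM on chow, a log2 ratio of -0.45 without overlap (edgeR adjusted p = 0.856). Krt14 also lay lower without overlap, with a log2 ratio of -0.90 (edgeR adjusted p = 0.859). Sfn, like Perp more abundant per length than Fat2, went the other way, with a log2 ratio of 0.48 without overlap (edgeR adjusted p = 0.904). The part of squamous and basal cells in the Fat2 level was not tested. Fibroblast markers summed to 2430 to 4077 CPM on the high fat diet and 3262 and 2815 CPM on chow, with overlap. Macrophage markers summed to 969 to 1402 CPM on the high fat diet and 1185 and 909 CPM on chow, also with overlap. Endothelial markers had 458 to 581 CPM on the high fat diet and 483 and 393 CPM on chow, with all 6 above 0. C cell markers had 271 to 626 CPM on the high fat diet and 328 and 355 CPM on chow, with 6 of 7 above 0, and cartilage markers had 240.1 to 287 CPM on the high fat diet and 235 and 232 CPM on chow, with 5 of 6 above 0 (median log2 ratio 0.54). The 1 listed parathyroid marker, Casr, had 8.61 to 33.2 CPM on the high fat diet and 24.4 and 7.52 CPM on chow, and the 2 listed thymic epithelium markers summed to at most 1.29 CPM on the high fat diet and 1.598 CPM on chow.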

How the data were processed

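Total RNA of thyroid glands was made into stranded libraries, per the labels' protocols. The submitters' processing notes name HISAT2, StringTie, DESeq2 and mm10, without roles or versions. The authors deposited read counts and FPKM for 16413 genes, and the lowest count in any of them is 1, which leaves genes without reads in some library outside the table used. Per the file headers, normalized log2 values and a signed fold score, chow over high fat diet, stand beside them, and the log2 values entered no result. A further 3 per-sample columns matched no sample and stayed unused. The columns spell high fat diet with another middle letter and were matched by treatment and number.

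Counts were fitted with edgeR 4.0.16 in R 4.3.3 (TMM factors, filterByExpr, robust quasi-likelihood, diet alone, Benjamini-Hochberg at 0.05), which left 15765 genes, all 7 members included. The common biological coefficient of variation was 18.8%. Standard errors come from the same fit. The steps were tested on simulated counts. Alternatives were RLE factors, no filter, DESeq2 1.42.0, limma-voom (limma 3.58.1), an offset for transcript length (loess span 0.3), limma on log2(FPKM + 1) and log2(FPKM + 0.1), and leaving out each library.

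Transcript lengths implied by counts and FPKM were used for length, and GENCODE M21 transcripts and positions for annotation. Promoters of all 8 genes were matched by symbol in RefSeq. Named were all members, up to 4 genes of smallest p per pathway list, Dchs1, 3 latrophilins, Flrt2 and Flrt3 whatever their values, and the 5 genes nearest to Tenm3 and to Fat2. Marker genes, Adgrl4, Tcap, Unc5b, Unc5c, Tead3 and Tead4 outside this rule were named after their values were seen. The members and lists were chosen with earlier results of these data known.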

Additional observations from a re-analysis of the deposited data

How the results depend on the processing

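The diet log2 fold changes of Tenm3, Fat2 and Tenm4 kept their sign in all 12 alternatives, from -0.73 to -0.52 for Tenm3, from -0.72 to -0.50 for Fat2 and from -0.64 to -0.43 for Tenm4. Tenm3 and Fat2 were chosen by their lower values in these libraries, and the groups of both and of Tenm4 did not overlap in CPM. A change of sign was therefore hardly possible, and nothing is read from the constant sign. The values nearest to 0 (-0.52, -0.50 and -0.43) came from limma on log2(FPKM + 1), and log2(FPKM + 0.1) gave -0.57, -0.55 and -0.48. The median over all genes tested was 0.07 with log2(FPKM + 1) and 0.09 with log2(FPKM + 0.1), against 0.01 in the main fit. The cause of these differences was not tested. With 1 library left out, Tenm3 ran from -0.73 to -0.59 and Fat2 from -0.72 to -0.59. Fat4 and Tenm2 also kept their sign in 12 of 12, but Tenm2 ran from -1.43 to -0.03, while Fat1 and Fat3 did so in 9 of 12. Over all genes DESeq2 called 47 higher and 46 lower where edgeR called 0, and the cause was not tested. Without 1 library edgeR called 0 to 2 higher and 0 to 3 lower. The highest of these, 2 and 3, came without chow replicate 8, and there were 1 and 2 without high fat diet replicate 2 and 0 and 2 without chow replicate 2. On the pathway and marker lists DESeq2 called 2 genes higher (Slc5a5 and Calcb) and 3 lower (Actc1, Cfd and Cidec), all cell type markers. Without 1 library edgeR called 0 to 2 of the listed genes lower, the 2 being Actc1 and Myh8 without chow replicate 8. With counts divided by transcript length in place of FPKM, Tenm3 held 59.7% of summed teneurin expression on the high fat diet and 61.1% on chow. No paired analysis was possible because the groups share a single replicate number. Depth limits Tenm2, with at most 32 reads in a library.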
